A study of Homo sapiens with 6 samples.

Results

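The enzymes that make serine and pass its carbon to folate were followed in AGS cells, a line from a human gastric adenocarcinoma, after knockdown of the pseudogene ANXA2P1. The 10 genes were chosen by name, and they are grouped around MTHFD2, which was selected because its measured log2 fold change in this same comparison was already known. Fold changes of these genes are therefore a description and no independent evidence. Of the 10 genes, 8 have a row in the deposited table of 11846 genes, and ALDH1L2 and PHGDH were not analysed here. Mitochondrial enzymes are MTHFD2, MTHFD2L, MTHFD1L and SHMT2 (4), and cytosolic enzymes are MTHFD1, SHMT1, PSAT1 and PSPH (4). All 8 passed the filter on low values, a mean of at least 0.5 FPKM (fragments per kilobase of gene, scaled to library size).

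Poly(A) RNA was sequenced from 3 control and 3 ANXA2P1 knockdown libraries, all of AGS cells grown in medium with 10% fetal bovine serum. ANXA2P1 is a processed copy of the annexin A2 gene. The labels give scr-shRNA, a scrambled short hairpin RNA, for the control and ANXA2P1 knockdown for the other group, while the study's methods describe CRISPR interference, in which dCas9-KRAB represses a promoter. The level of ANXA2P1 itself was not analysed here. The labels word the treatment of the groups differently, and a batch that follows the groups and the knockdown cannot be told apart.

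Libraries held 19010940 to 22911995 recovered reads. Knockdown 1 stood apart, with a mean correlation with the other libraries of 0.98946 over genes, beside 0.99292 to 0.99462 for the others, so log2 differences of the genes named below are given with and without it where they come from the fit. In limma, 14 of 10813 tested genes passed an adjusted p of 0.05 (1149 at an unadjusted p under 0.05), 12 lower and 2 higher. The median log2 fold change of all genes was 0.01. Epithelial markers, all 7 of which had a row, summed to 1385 to 1491 FPKM in the control and 1461 to 1639 FPKM in the knockdown. Of 7 gastric markers 4 had a row, and MUC5AC, MUC6 and GKN1 had none. The 4 summed to 3.03, 4.70 and 2.89 FPKM in controls 1 to 3 and 6.33, 3.07 and 3.42 FPKM in knockdowns 1 to 3, highest in knockdown 1. Of these, TFF1 had 4.32 FPKM in knockdown 1 beside 1.92 to 2.90 FPKM in the controls, and TFF3 had 0.0476 FPKM in knockdown 2 beside 0.643 to 0.967 FPKM in the controls. Of 9 fibroblast and endothelial markers only COL1A1 had a row (1.38 to 1.62 FPKM in the control and 1.503 to 1.57 FPKM in the knockdown). Of 6 blood cell markers only LYZ did, a lysozyme gene that gastric epithelium also expresses. LYZ had 182, 374 and 219 FPKM in controls 1 to 3 and 343, 175 and 239 FPKM in knockdowns 1 to 3, so it was highest in control 2 and knockdown 1. The part of these markers in the results below was not tested. In bulk RNA, fewer cells of a kind and less RNA per cell cannot be told apart.

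Serine is made from the glycolytic intermediate 3-phosphoglycerate by PHGDH, PSAT1 and PSPH in consecutive steps. Serine hydroxymethyltransferases turn serine into glycine and load the freed carbon onto tetrahydrofolate, SHMT2 in mitochondria and SHMT1 in the cytosol. In mitochondria MTHFD2 or MTHFD2L oxidises the folate-bound carbon and MTHFD1L releases it as formate, which MTHFD1 recaptures in the cytosol for purine, thymidylate and methionine synthesis. MTHFD2 is low in most adult tissues and high in many tumours, and several of these genes are known targets of ATF4, the transcription factor of the amino acid response.

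The promoters of MTHFD2 and PSAT1 are shown because these enzymes had the lowest log2 fold changes of the 8, and that of MTHFD1L because it was the only one with a C/EBP-ATF response element, the site that ATF4 and C/EBP partners bind. Of the 10 genes, 7 had an entry in the RefSeq promoter table (GRCh38.p14; windows from 250 bases before to 50 after a start site), and ALDH1L2, SHMT2 and PSPH had none. Sequences run 5′ to 3′ on the plus strand, the strand of all 3 genes. Capitals mark CCAAT boxes in the first pair and the response element in MTHFD1L. The response element lies inside the gene as GENCODE annotates it. Its first base is at −129, −90 and 25 from the RefSeq start sites of MTHFD1L in the table, so it is downstream of the last of these.
MTHFD2, chr2:74198412-74198561: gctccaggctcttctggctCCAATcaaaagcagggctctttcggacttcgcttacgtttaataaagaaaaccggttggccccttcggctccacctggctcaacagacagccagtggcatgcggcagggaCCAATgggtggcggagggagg
PSAT1, chr9:78296975-78297124: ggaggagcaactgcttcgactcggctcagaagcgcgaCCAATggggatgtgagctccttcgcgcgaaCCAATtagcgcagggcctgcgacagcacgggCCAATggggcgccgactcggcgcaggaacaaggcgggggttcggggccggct
MTHFD1L, chr6:150866347-150866375: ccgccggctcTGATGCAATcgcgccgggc

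Motifs were searched on both strands. A gene was counted if any of its windows matched, whereas the shares of all promoters are per window, and a gene can have several windows. The response element, TGATGNAAT with N for any base, was found in MTHFD1L alone among the 7 genes and in 0.991% of 35116 promoters. The E-box CACGTG, a site of MYC and its partners, was found in MTHFD1L and MTHFD1 and in 7.26% of all promoters. The CCAAT box, a common promoter element that was added after the sequences had been read, was found in 6 of 7 genes, all but MTHFD2L, and in 34.6% of all promoters. PSAT1 held 3 CCAAT boxes, as many or more of which were in 3.26% of all promoters. MTHFD2 held 2, as did MTHFD1 and SHMT1, with 10.8% of all promoters at that number or above. Repeated boxes were thus not particular to the enzymes with the lowest log2 fold changes. Among the 13876 windows of genes in the deposited table, the shares with a match were 0.533%, 9.26% and 35.1% for the response element, E-box and CCAAT box. These matches are a description of the letters in these windows.

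In control cells PSAT1 was the most abundant of the 8 mRNAs and MTHFD2L the least. Control means were 289 ± 44.2 FPKM for PSAT1, 53.7 ± 5.16 for SHMT2, 35.7 ± 1.15 for PSPH, 25.9 ± 0.736 for MTHFD1L, 24.9 ± 2.53 for MTHFD2, 15.4 ± 1.39 for MTHFD1, 9.32 ± 0.156 for SHMT1 and 0.979 ± 0.0881 for MTHFD2L (SD, n = 3). MTHFD1L and MTHFD2 were neighbours in this order whose libraries overlapped. The order depends on the gene length behind each value. The length implied by reads and FPKM was 11443 bases for MTHFD2, beside 4456 bases for its principal mRNA in GENCODE release 29, and 12208 beside 3136 bases for MTHFD1, whereas for PSAT1 the lengths were 2206 and 2188 bases. As reads per kilobase of principal mRNA, scaled to library size, MTHFD2 came next after PSAT1 and SHMT2 with 68.0 ± 6.99, beside 310 ± 47.8 for PSAT1 and 103 ± 10.1 for SHMT2. It was followed by MTHFD1 with 63.4 ± 5.67, whose libraries overlapped with those of MTHFD2, then PSPH with 48.6 ± 1.64, MTHFD1L with 37.4 ± 1.11, SHMT1 with 29.2 ± 0.532 and MTHFD2L with 4.44 ± 0.403. On this scale the mitochondrial dehydrogenase MTHFD2 thus overlapped with cytosolic MTHFD1, and MTHFD2L was far below both. The scale divides all reads of a gene by its principal mRNA, so reads from outside that mRNA would raise the value. The implied length was also the longer one for MTHFD2L (9819 beside 2300 bases), SHMT1 (7281 beside 2464 bases) and SHMT2 (4592 beside 2537 bases). It was longer by less for MTHFD1L (4891 beside 3604 bases) and PSPH (2762 beside 2154.5 bases). Where the reads lay was not tested, so this order is no more certain than that by FPKM. A length is the same for every library and by itself does not enter a fold change. For MTHFD2 and MTHFD1 the implied length also exceeded the union of their GENCODE exons, of 4870 and 9377 bases. If reads of other genes were counted with them, those reads would enter the fold change, which was not tested.

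**Figure D1:**
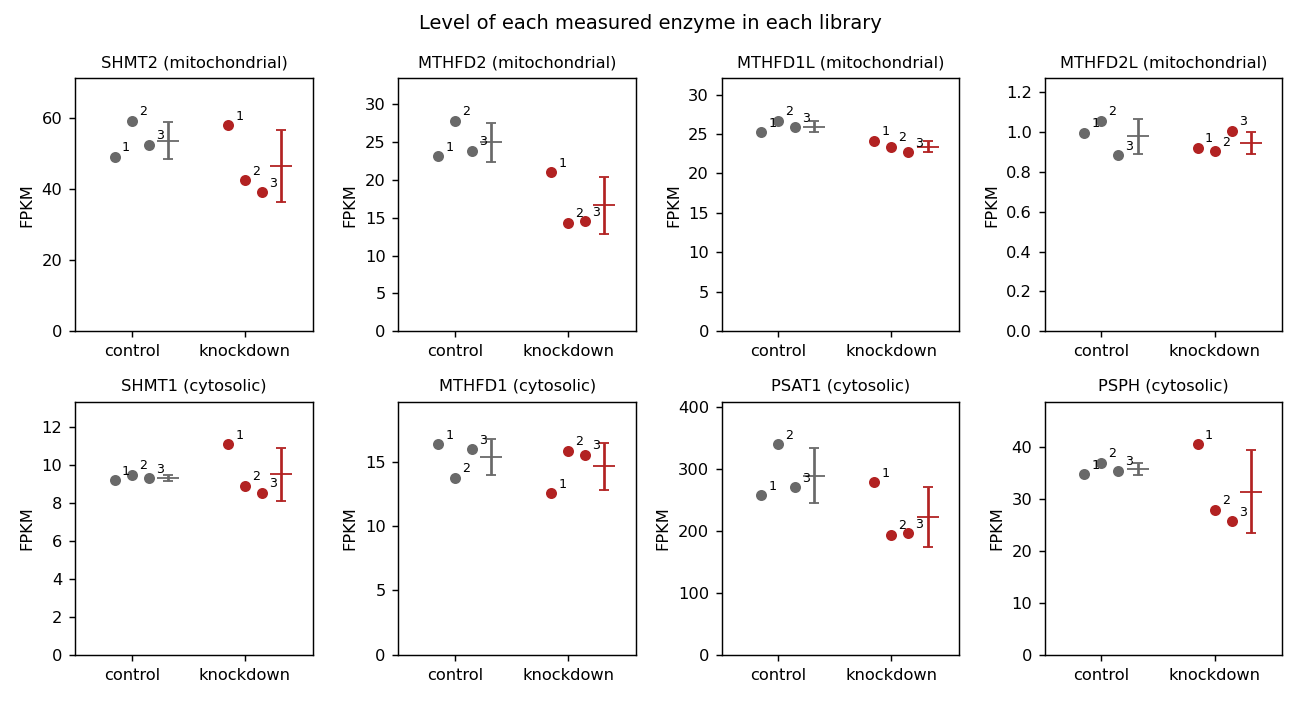
FPKM of the 8 measured enzymes (y axis, linear from 0) in control and knockdown libraries (x axis). Points are libraries numbered by replicate and the bar beside them is the mean ± SD (n = 3). MTHFD2 and MTHFD1L had every knockdown library below every control, and for SHMT2, PSAT1, PSPH and SHMT1 this held for knockdown 2 and 3 only.

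MTHFD2, the mitochondrial methylenetetrahydrofolate dehydrogenase and cyclohydrolase, had the lowest log2 fold change of the 8. It is annotated at chr2:74198562-74217565 (hg38, plus strand). It had 23.2, 27.8 and 23.8 FPKM in controls 1 to 3 and 21.0, 14.3 and 14.5 FPKM in knockdowns 1 to 3. The groups did not overlap, and knockdown 1 lay between the controls and the other knockdown libraries. The mean was 24.9 ± 2.53 FPKM in the control and 16.6 ± 3.78 FPKM in the knockdown (SD, n = 3), or 66.6% of the control. The log2 fold change was −0.60 (SE 0.148), and 17 of the 10813 genes had a lower one. MTHFD2 was selected for this value, so its rank is no evidence. The log2 fold change did not pass over all genes (limma adjusted p = 0.185). Without knockdown 1 it was −0.78 (SE 0.0790, limma adjusted p = 0.00218). The gene had 3735 to 7146 reads per library, where counting alone gives a coefficient of variation of 1.36%, beside 10.1% between the controls and 22.7% between the knockdown libraries. GENCODE annotates 7 genes named as copies of MTHFD2, and the coding genes SLC4A5 and AC006030.1 overlap MTHFD2. The sources used here do not say how shared reads were assigned.

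MTHFD2L, the related mitochondrial dehydrogenase, had 0.996, 1.06 and 0.884 FPKM in the controls and 0.922, 0.903 and 1.01 FPKM in the knockdown libraries. The groups overlapped fully, and control 3 was lowest. The fitted log2 difference was −0.05 (SE 0.113, limma adjusted p = 0.912), and −0.03 without knockdown 1. It is annotated at chr4:74114174-74303099 (plus strand). With 183 to 233 reads per library, counting alone gives a coefficient of variation of 6.84%, close to the 8.99% between the controls, so depth limits what can be seen for this gene.

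MTHFD1L, the mitochondrial formyltetrahydrofolate synthetase that releases formate, had 25.2, 26.7 and 25.9 FPKM in the controls and 24.1, 23.4 and 22.7 FPKM in the knockdown libraries. All 3 knockdown libraries lay below all controls, by a smaller margin than for MTHFD2. In the fit this came to −0.15 on the log2 scale (SE 0.0587, limma adjusted p = 0.426), and −0.17 without knockdown 1 (limma adjusted p = 0.178). This was the gene with the response element shown above. It is annotated at chr6:150865549-151101887 (plus strand).

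SHMT2, the mitochondrial serine hydroxymethyltransferase, had 49.2, 59.3 and 52.6 FPKM in the controls and 57.9, 42.5 and 39.1 FPKM in the knockdown libraries. Knockdown 1 lay inside the control range, while knockdown 2 and 3 lay below all controls. On the log2 scale this was a difference of −0.22 (SE 0.144, limma adjusted p = 0.628), and without knockdown 1 it was −0.39 (SE 0.0808, limma adjusted p = 0.0340). It was −0.11 without knockdown 3 and −0.15 without control 2. SHMT2 is annotated at chr12:57229327-57234935 (plus strand) and overlaps NDUFA4L2.

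MTHFD1, the cytosolic enzyme with dehydrogenase, cyclohydrolase and synthetase activities, had 16.3, 13.8 and 16.0 FPKM in the controls and 12.5, 15.8 and 15.5 FPKM in the knockdown libraries. Its lowest libraries were knockdown 1 and control 2. Control 2 was the highest control for every other measured enzyme. In knockdown 1 the others were mixed, with MTHFD2 and MTHFD1L also below all controls and SHMT1 and PSPH above them. The fitted log2 difference was −0.07 (SE 0.108, limma adjusted p = 0.845), and 0.04 without knockdown 1. TYMS, the thymidylate synthase that consumes the folate-bound carbon for DNA synthesis, was likewise lowest in control 2 and knockdown 1, with 23.1, 16.6 and 23.2 FPKM in the controls and 17.2, 21.0 and 20.5 FPKM in the knockdown libraries. TYMS was singled out after its values were seen. MTHFD1 is annotated at chr14:64388031-64463457 (plus strand) and overlaps ZBTB25.

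SHMT1, the cytosolic serine hydroxymethyltransferase, had 9.18, 9.49 and 9.30 FPKM in the controls and 11.1, 8.90 and 8.53 FPKM in the knockdown libraries. Knockdown 1 was above all controls and the other knockdown libraries were below them. In the fit this came to 0.02 on the log2 scale (SE 0.1001, limma adjusted p = 0.963), and −0.10 without knockdown 1 (limma adjusted p = 0.489). SHMT1 is annotated at chr17:18327860-18363563 (minus strand) and overlaps SMCR8.

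**Figure D2:**
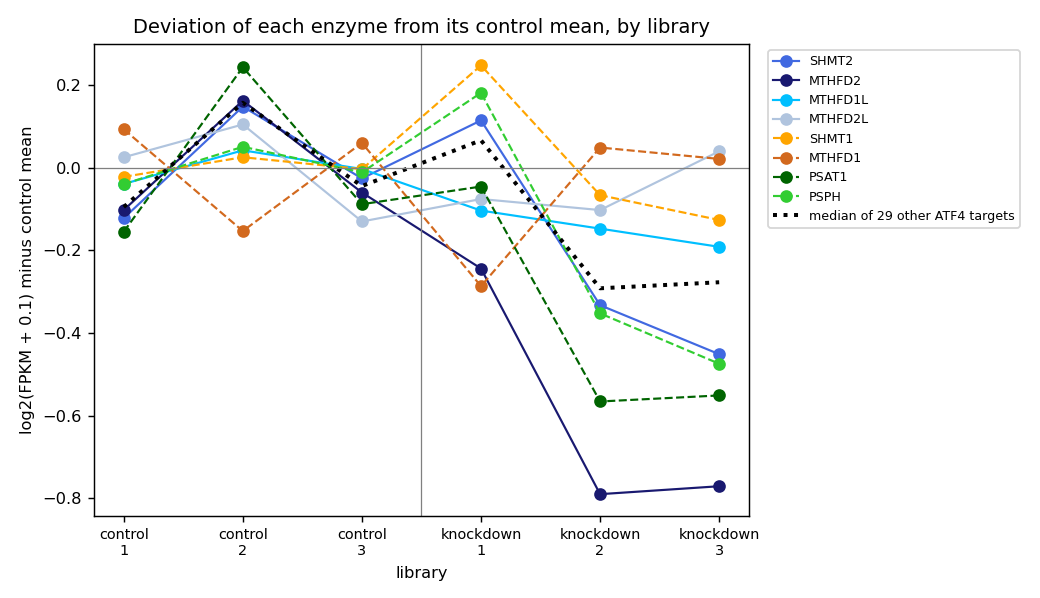
Deviation of each enzyme from its control mean on the log2(FPKM + 0.1) scale (y axis) in each library (x axis), with mitochondrial enzymes as solid and cytosolic enzymes as dashed lines. The dotted line is the median of the 29 other ATF4 targets with a row. In knockdown 1, SHMT1, PSPH and SHMT2 were at 0.25, 0.18 and 0.11, and MTHFD1 and MTHFD2 at −0.29 and −0.24.

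Mitochondrial enzymes were set against their counterparts within each library. The log2 ratio of SHMT2 over SHMT1 was 2.41, 2.63 and 2.49 in the controls and 2.38, 2.24 and 2.18 in the knockdown libraries. The groups did not overlap, knockdown 1 being just below the lowest control, and the difference of the means was −0.24. The log2 ratio of MTHFD2 over MTHFD2L was 4.41, 4.59 and 4.61 in the controls and 4.37, 3.85 and 3.72 in the knockdown libraries. Both enzymes of this ratio are mitochondrial. The groups again did not overlap, with a difference of −0.56. Knockdown 1 was just below control 1, a narrow gap beside the counting variation of 6.84% for MTHFD2L. The log2 ratio of MTHFD2 over MTHFD1 was 0.50, 1.01 and 0.58 in the controls and 0.74, −0.14 and −0.10 in the knockdown libraries. Here knockdown 1 lay within the controls, and the difference was −0.53. MTHFD1L over MTHFD1 had a difference of −0.08 with overlapping groups, and 0.94 in knockdown 1 was near the 0.95 of control 2. Without knockdown 1 the differences were −0.30 for SHMT2 over SHMT1, −0.75 for MTHFD2 over MTHFD2L, −0.82 for MTHFD2 over MTHFD1 and −0.20 for MTHFD1L over MTHFD1. These ratios use the values known when the genes were selected and were given no test, and an exact permutation test of 3 against 3 cannot go below 0.10.

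**Figure D3:**
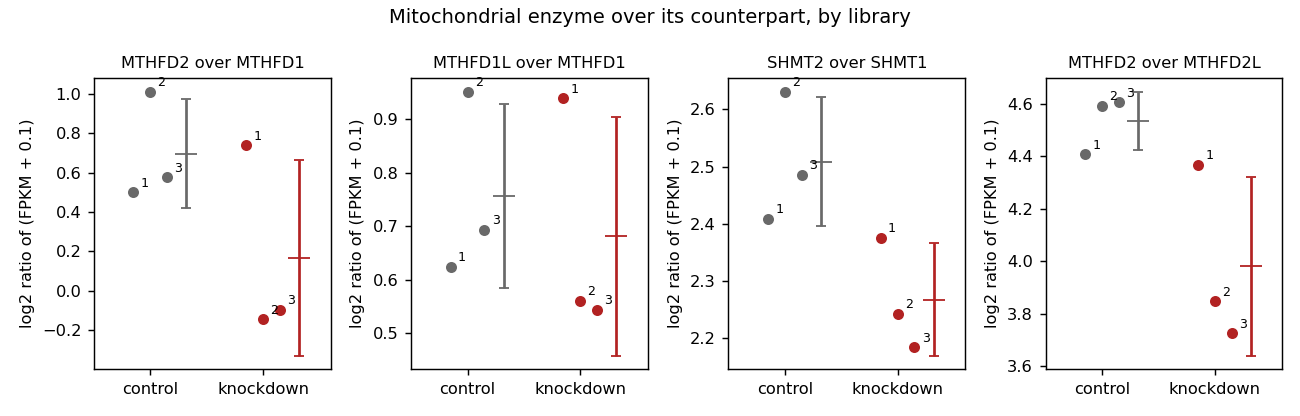
Log2 ratio of the (FPKM + 0.1) of a mitochondrial enzyme to that of its counterpart (y axis) in control and knockdown libraries (x axis), numbered by replicate, with the mean ± SD (n = 3). Groups did not overlap for SHMT2 over SHMT1 and MTHFD2 over MTHFD2L, with knockdown 1 just below control 1 in both. They overlapped for both ratios over MTHFD1.

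Among the serine synthesis enzymes, PSAT1, the phosphoserine aminotransferase, had the lower log2 fold change. It had 258, 340 and 270 FPKM in the controls and 278, 194 and 196 FPKM in the knockdown libraries. Knockdown 1 lay within the controls, and knockdown 2 and 3 were below all of them. The mean was 289 ± 44.2 FPKM in the control and 223 ± 48.1 FPKM in the knockdown (SD, n = 3). On the log2 scale this was a difference of −0.39 (SE 0.159, limma adjusted p = 0.441), and −0.56 without knockdown 1 (SE 0.104, limma adjusted p = 0.0263). PSAT1 is annotated at chr9:78297143-78330093 (plus strand), and GENCODE annotates 4 genes named as copies of it.

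PSPH, the phosphatase that yields serine in the last step, had 34.7, 37.0 and 35.4 FPKM in the controls and 40.5, 27.9 and 25.7 FPKM in the knockdown libraries. Knockdown 1 was the highest library of all, whereas the other knockdown libraries were the lowest. The control libraries were close together, with a coefficient of variation of 3.23% beside 25.4% in the knockdown. The fitted log2 difference was −0.22 (SE 0.152, limma adjusted p = 0.660), and −0.41 without knockdown 1 (SE 0.0622, limma adjusted p = 0.0106). It was −0.09 without knockdown 3 and −0.15 without knockdown 2, so the size rested on single libraries. PSPH is annotated at chr7:56011051-56051604 (minus strand), and its copy PSPHP1 could share reads with it.

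**Figure D4:**
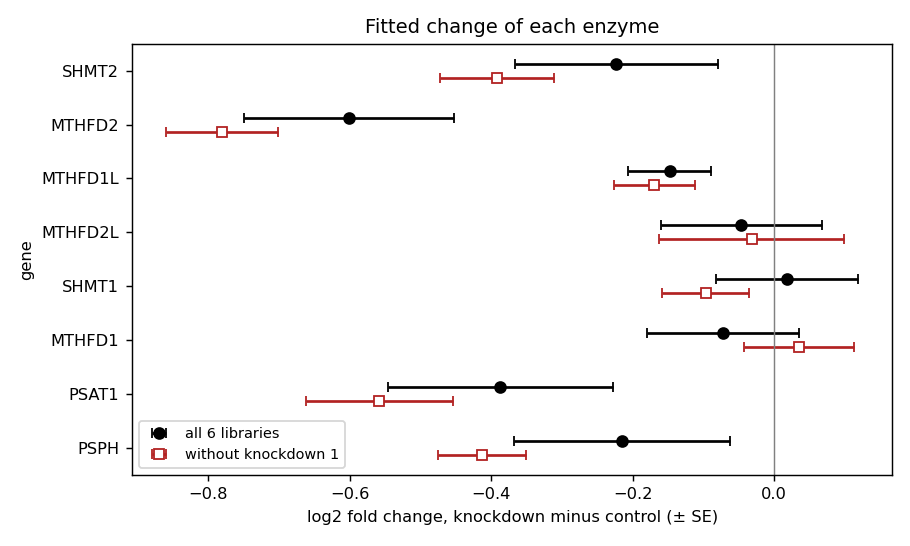
Fitted log2 fold change of each enzyme, knockdown minus control (x axis, ± SE), with all 6 libraries (filled circles) and without knockdown 1 (open squares). Without knockdown 1 the values of SHMT2, PSAT1 and PSPH were −0.39, −0.56 and −0.41, and MTHFD1 and MTHFD2L were at 0.04 and −0.03.

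As a group, 0 of 8 genes passed the adjusted p with all libraries, where 0.129% of all tested genes did, and 3 were at an unadjusted p under 0.05, beside 10.6% of all genes. The knockdown values of 2 of 8, MTHFD2 and MTHFD1L, were lower without overlap, as for 9.13% of all genes. The log2 fold change was negative for 7 of 8, beside 46.9% of all genes. Its median was −0.18 over the 8, −0.19 over the mitochondrial and −0.14 over the cytosolic enzymes, and the difference between the compartments was not tested. Without knockdown 1, 4 of 8 passed (MTHFD2, SHMT2, PSAT1 and PSPH), beside 2.37% of all genes, and the median was −0.28. With array weights, which give knockdown 1 a weight of 0.188 and knockdown 2 one of 3.75, 5 of 8 passed (also MTHFD1L), beside 11.1% of all genes. Since the rule used this contrast, nothing is read from these counts about the genes as a group.

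The order of the libraries within the genes was also counted. These counts use the same values as the selection and are a description only. Control 2 was the highest control for 7 of 8, all but MTHFD1, which was so for 45.1% of all tested genes. Knockdown 2 and 3 both lay below all controls for 6 of 8, beside 16.5% of all genes. The FPKM of the 8 genes summed to 417, 515 and 434 in the controls and 446, 328 and 323 in the knockdown libraries, where PSAT1 made up most of the sum.

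Another 39 genes were listed, of folate uptake and turnover, glycine cleavage, purine synthesis, the methionine cycle, transsulfuration and serine transport and use. Of these, 30 were tested and 0 passed the adjusted p in limma, where 0.129% of all tested genes did. Only 1 was at an unadjusted p under 0.05, beside 10.6% of all genes. The log2 fold change was negative for 20 of 30, beside 46.9% of all genes. Its median was −0.05 and, without knockdown 1, −0.06. The knockdown values of 4 were lower without overlap, as for 9.13% of all genes. The lowest were CTH, the cystathionine lyase that makes cysteine, with −0.45 (limma adjusted p = 0.569), and SLC1A4, a transporter of serine and alanine, with −0.33 (limma adjusted p = 0.573). CTH had 14.1, 22.8 and 15.5 FPKM in the controls and 17.97, 9.64 and 11.3 FPKM in the knockdown libraries, the same order of knockdown libraries as PSAT1, and without knockdown 1 the value was −0.71 (limma adjusted p = 0.148). SLC1A4 had 5.73, 7.56 and 6.29 FPKM in the controls and 6.95, 4.28 and 4.56 FPKM in the knockdown libraries. It was the only one of the 30 to pass without knockdown 1, with −0.54 (limma adjusted p = 0.0290), where 2.37% of all tested genes did.

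SDSL, a serine dehydratase-like gene, had the highest log2 fold change, 0.40 (limma adjusted p = 0.526). It had 2.001, 2.11 and 1.85 FPKM in the controls and 3.77, 2.01 and 2.45 FPKM in the knockdown libraries, so its value was highest in knockdown 1, and without that library the log2 fold change was 0.16. The purine enzymes GART and ATIC, which use formyl groups, had log2 fold changes of −0.04 and 0.01, and −0.06 and 0.01 without knockdown 1.

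**Figure D5:**
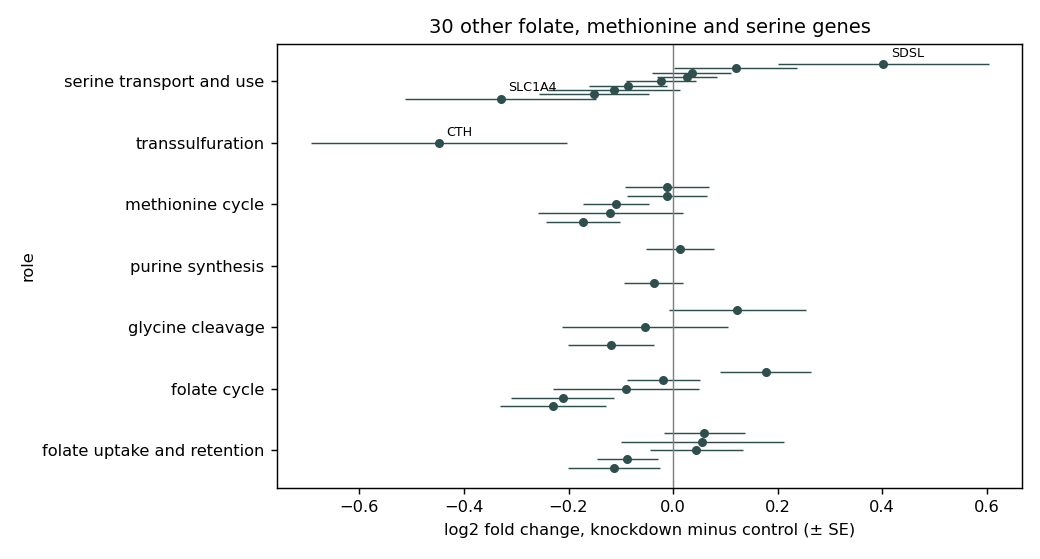
Log2 fold change, knockdown minus control (x axis, ± SE), of 30 other tested genes by their role (y axis), each point being a gene. CTH and SLC1A4 were at −0.45 and −0.33 and SDSL at 0.40, and the median of the 30 was −0.05.

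Regulators of these genes were read from the same fit, and 0 of 7 passed with all libraries. At an unadjusted p under 0.05 there were 2, beside 10.6% of all genes. The knockdown values of 2, MYC and NFE2L2, were lower without overlap, as for 9.13% of all genes. Those of EIF2AK1 were higher without overlap. ATF4 mRNA had 229, 251 and 233 FPKM in the controls and 287, 210 and 212 FPKM in the knockdown libraries, highest in knockdown 1 and lowest in the other knockdown libraries, and a log2 difference of −0.02 (limma adjusted p = 0.962) that was −0.17 without knockdown 1 (limma adjusted p = 0.224). ATF4 is controlled largely at translation, which mRNA levels do not show. MYC, which activates serine and folate genes, had 41.7, 47.7 and 44.6 FPKM in the controls and 39.5, 34.4 and 31.6 FPKM in the knockdown libraries without overlap, a log2 difference of −0.35 (limma adjusted p = 0.223) or, without knockdown 1, −0.44 (limma adjusted p = 0.0132). NFE2L2, the gene of the oxidative stress factor NRF2, had 29.03, 29.1 and 28.6 FPKM in the controls and 21.3, 23.2 and 26.7 FPKM in the knockdown libraries, a log2 difference of −0.29 (limma adjusted p = 0.270) and, without knockdown 1, −0.22 (limma adjusted p = 0.147). The kinases that switch on ATF4 translation had log2 fold changes of 0.06 for EIF2AK1, −0.01 for EIF2AK2, −0.0043 for EIF2AK3 and 0.05 for EIF2AK4. Without knockdown 1 these were 0.06, 0.12, 0.07 and 0.11, so EIF2AK2 and EIF2AK3 changed sign.

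Other ATF4 targets followed the libraries in a like manner. Of 31 listed genes 28 were tested, 0 passed the adjusted p (7 at an unadjusted p under 0.05, where 10.6% of all genes were), and 24 of 28 were negative, beside 46.9% of all genes. The median log2 fold change was −0.18, and −0.26 without knockdown 1. The median deviation from the control mean over the 29 genes with a row was −0.10, 0.16 and −0.04 in the controls and 0.07, −0.29 and −0.28 in the knockdown libraries. It was thus highest in control 2 and lowest in knockdown 2 and 3, as for PSAT1. Without knockdown 1, 6 of 28 passed (CHAC1, SESN2, SLC7A5, SLC6A9, WARS1 and GARS1), where 2.37% of all tested genes did. The lowest log2 fold changes were those of SLC7A11, the cystine transporter, with −0.57 (limma adjusted p = 0.259; −0.62 without knockdown 1), and CHAC1, which breaks down glutathione, with −0.42 (limma adjusted p = 0.582). CHAC1 was at −0.72 without knockdown 1 (limma adjusted p = 0.0103) and at −0.26 without knockdown 3. The highest were those of ATF5, a related transcription factor, with 0.14 (limma adjusted p = 0.526), and DDIT4, an inhibitor of mTORC1, with 0.08 (limma adjusted p = 0.943). Without knockdown 1 these were 0.09 and −0.27, so DDIT4 changed sign.

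The genes whose log2(FPKM + 0.1) followed MTHFD2 most closely over the 6 libraries, among 10107 genes with a mean of at least 1 FPKM, were FAM107B (Pearson r = 0.999), DUSP6 (0.992), SLC7A1 (0.992), ETV5 (0.991) and GARRE1 (0.989). DUSP6 is a phosphatase of ERK, ETV5 a transcription factor of the ETS family and SLC7A1 a transporter of arginine and lysine. DUSP6 had 7.13, 8.25 and 7.69 FPKM in the controls and 6.60, 5.32 and 5.31 FPKM in the knockdown libraries, so control 2 was highest and knockdown 2 and 3 were lowest, as for MTHFD2. Of the enzymes, PSAT1 had r = 0.96 and MTHFD1L r = 0.95 with MTHFD2, SHMT2 0.88, PSPH 0.84, SHMT1 0.45, MTHFD2L 0.27 and MTHFD1 −0.30. The points are 6 libraries of 2 groups that share the difference between the groups, and with so many genes ranked these values are a description only.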

How the data were processed

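mRNA was captured on oligo-dT beads and the libraries had a U-labelled second strand. The submitters' processing notes name TopHat, Bowtie2 and hg38. No source used here gives versions, the read counter, its strand setting, the annotation or a filter on low values. The authors deposited FPKM values, 1 column per library and 11846 genes, with a lowest mean of 0.167 FPKM. The treatment label set the groups, whose replicates are described as biological.

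Whole reads were recovered from the FPKM values for 11844 genes (99.98%) with a tolerance of 0.001 to 0.05 reads, with a median of 819 reads per gene and library. They served for depth, gene lengths and a chi-square check of replicates (2.86 to 36.4 per degree of freedom, so no library was a duplicate). Gene lengths implied by reads and FPKM agreed within 1% with the GENCODE release 29 exon union for 61.3% of 11589 matched genes, and the annotation behind the deposited lengths is not known.

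The comparison was fitted with limma 3.58.1 in R 4.3.3 (eBayes, both trend and robust) on log2(FPKM + 0.1), a scale that understates changes of low genes, over genes with a mean of at least 0.5 FPKM, with Benjamini-Hochberg adjustment over all of them and a threshold of 0.05. The fit was tested on simulated data. Ratios, ranks and correlations used Python 3.11.15, pandas 2.3.3 and numpy 2.4.6. Alternatives were a pseudocount of 1, no filter or a mean of at least 1 FPKM, no trend or robust settings, array weights, columns rescaled to a common total, the replicate number as a block and each library left out in turn. Voom weights on recovered reads were added after the data were seen. Array weights were estimated gene by gene, because the default estimate did not converge.

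The members and lists were chosen with earlier results of these data known. Genes named are all 10 members, all regulators, the 2 highest and the 2 lowest log2 fold changes of each other list, any gene of a list past the adjusted p, and the 5 genes with the highest Pearson r with MTHFD2. Names given beyond that rule were added after their values were seen. A gene that this rule names is not reported here.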

Additional observations from a re-analysis of the deposited data

How the results depend on the processing

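With no trend and no robust settings 0 genes passed the adjusted p in limma. With array weights 1195 genes passed, among them 5 of the 8 enzymes and 4 of the other folate and one-carbon genes. Array weights also turned the sign of values near 0, to −0.0553 for SHMT1, 0.0563 for EIF2AK2 and −0.1711 for DDIT4. With the replicate block 1 gene and none of the enzymes passed. Deviations of same-numbered libraries from their group means correlated at −0.34, −0.47 and −0.12 over genes, so same-numbered libraries did not deviate alike. With deviations from means of 3 libraries this cannot exclude a pairing. A pseudocount of 1, no filter on low values, rescaled columns and voom weights kept the count of genes within 1.5 times of 14, with 0 enzymes. The filter at a mean of 1 FPKM leaves MTHFD2L untested. The cause of these shifts was not tested.

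When each library was omitted in turn, between 0 and 256 genes passed, with 0 to 4 enzymes and 0 to 1 of the other folate and one-carbon genes. Each upper value came without knockdown 1. The log2 fold change ranged from −0.1111 to 0.0063 for MTHFD2L, −0.1486 to 0.0351 for MTHFD1, −0.0964 to 0.0905 for SHMT1, −0.1711 to 0.0543 for ATF4, −0.1000 to 0.1159 for EIF2AK2, −0.0938 to 0.0682 for EIF2AK3 and −0.2651 to 0.3191 for DDIT4. For MTHFD2 it stayed between −0.78 and −0.51, for PSAT1 between −0.56 and −0.27, for SHMT2 between −0.39 and −0.11, for PSPH between −0.41 and −0.09, for CTH between −0.71 and −0.24 and for SLC1A4 between −0.54 and −0.20. The median over the enzymes lay between −0.28 and −0.11. The ratio of MTHFD1L over MTHFD1 had a difference of −0.20 to 0.02. Depth limits MTHFD2L. With 3 libraries a group, the calls of MTHFD2, SHMT2, PSAT1 and PSPH depend on whether knockdown 1 is used or how it is weighted. MTHFD1L passed with array weights only (limma adjusted p = 0.0444).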
